A study of Mus musculus with 8 samples.

Results

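The transferrin receptor gene *Tfrc* and 9 other genes of cellular iron handling were followed in gastrocnemius (GAS) muscle after knockdown of MYTHO. The members are *Tfrc*, *Steap3*, *Slc11a2* and *Hfe*, which act in iron uptake, *Fth1*, *Ftl1* and *Ncoa4*, which act in storage, the exporter gene *Slc40a1*, and the iron sensors *Ireb2* and *Aco1*. Each was found by its gene symbol, and where a symbol had several probe sets the one with the highest mean signal over the arrays was kept, so 10 of 22206 probe sets are described. *Tfrc* entered the list because it differed between these same arrays, and its difference is therefore given as a description. Counts at a p threshold that include *Tfrc* repeat that choice and are no test of it. The other members were added for their place in the same pathway.

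The animals were male C57/Bl6j mice, labelled as 14 weeks of age, with no other allele given. Adeno-associated virus (AAV) of serotype 1 was injected into the GAS of both legs at about 10 weeks of age. In the AAV sh-RNA MYTHO group, the virus carried a short hairpin RNA against D230025D16Rik, the gene that codes for MYTHO, under a U6 promoter, which is active in any transduced cell and not only in muscle fibres. In the AAV sh-RNA scrmb group, the virus carried a scrambled hairpin under the same promoter and went into the opposite leg, so every control muscle had also been injected and transduced. RNA was taken 3 weeks later and hybridised to 8 arrays, 4 per group. Animal numbers in the deposited column names tie each MYTHO muscle to the scrmb muscle of the same mouse, and these mice are named A, B, C and D. MYTHO and scrmb below name the groups.

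Iron reaches most cells bound to transferrin, which is captured by the transferrin receptor and carried into endosomes. There a STEAP reductase converts the iron to its ferrous form and the transporter DMT1 moves it to the cytosol. Surplus iron is stored in ferritin or leaves the cell through ferroportin. Iron regulatory proteins sense the cytosolic pool: when iron is scarce they bind hairpins in messenger RNAs, which protects the *Tfrc* transcript from decay and holds back translation of ferritin and ferroportin. Skeletal muscle needs iron for myoglobin and for the iron-sulphur and haem proteins of its mitochondria. The arrays measure transcript signal alone, so the translational arm of this circuit, protein and iron itself were not measured.

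Median log2 signals lay between 6.39 and 6.47, and arrays of a group correlated across probe sets at 0.981 to 0.986. Skeletal muscle markers were high on every array, with list means of 16.6 to 17.0 in scrmb and 16.9 to 17.1 in MYTHO. The targeted transcript D230025D16Rik had a mean log2 signal of 11.12 ± 0.26 in scrmb and 8.31 ± 0.33 in MYTHO (SD, n = 4 each), which left 14.2% of the scrmb signal, and it was lower in all 4 animals. In bulk muscle, more cells of a type and more transcript per cell cannot be told apart, for any gene named here.

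*Tfrc* stood higher in MYTHO than in scrmb muscle of every animal. The gene (Entrez 22042) lies on chromosome 16 from 32608896 to 32632794 in GRCm38.p6, the assembly also called mm10. Log2 signals of scrmb animals A, B, C and D were 12.94, 12.45, 12.61 and 12.51. In MYTHO they were 14.02, 14.02, 13.73 and 13.86. The groups did not overlap, and the lowest MYTHO array was above the highest scrmb array. Group means were 12.63 ± 0.22 for scrmb and 13.91 ± 0.14 for MYTHO (SD, n = 4 each), a log2 difference of 1.28 with a standard error of 0.18, or 2.43-fold. Between the legs of one animal the difference ran from 1.08 in animal A to 1.57 in animal B. Of all 22206 probe sets, 21 had a higher difference than *Tfrc*, and 0.275% had one above 1.

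Members were then counted against the whole array. *Tfrc* was put in the list as 1 of the 2 probe sets called higher at a limma adjusted p under 0.05, a rule met by 0.00901% of all probe sets, and this call is how it was chosen and not a result. The call was lost with animal as a block and in 7 of the 8 fits that left out 1 array, all but the one without scrmb D, while the difference stayed between 1.22 and 1.38 in those fits. None of the other 9 members was called in either direction, against 0.027% of all probe sets called and 0.018% called lower. None of the 9 passed an unadjusted p under 0.05 either, against 4.81% of all probe sets higher, 7.58% lower and 12.4% in both directions. In each of the 9 the groups overlapped, whereas 2.59% of all probe sets were higher without overlap, 3.87% lower and 6.46% in both directions, and none of the 9 was higher in MYTHO in all 4 animals, against 8.94%. Of the 9, 7 had a difference above 0, against 49% of all probe sets, with a median of 0.20 against -0.005 over all probe sets. Leaving out 1 array moved that median from 0.04 without MYTHO B to 0.36 without MYTHO C, so its size rested on single arrays.

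**Figure D1:**
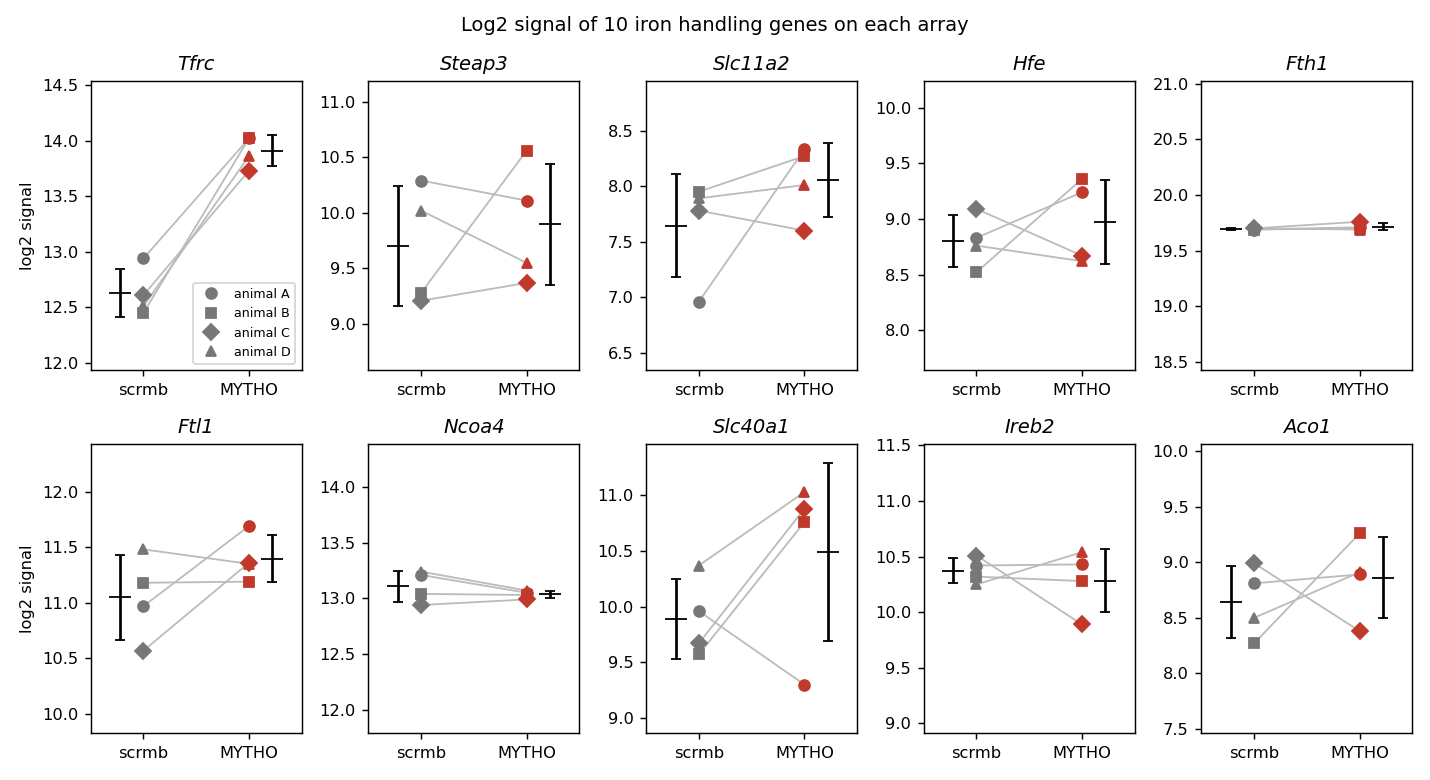
Log2 signal (y axis, the same span in each panel) of the 10 members in scrmb (grey) and MYTHO (red) muscle, with one marker shape per animal, a line joining the legs of an animal, and the mean ± SD of 4 arrays beside each group. In *Tfrc* all 4 MYTHO arrays, 13.73 to 14.02, sit above the scrmb arrays, 12.45 to 12.94, while in the other panels the groups overlap.

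The start of the *Tfrc* gene was read from RefSeq promoter windows of GRCm38.p6, because the gene is known to be controlled by hypoxia-inducible factors as well as through messenger RNA stability. RefSeq annotates transcript starts at 32608896 and 32609122. The 30 bases at chr16:32608886-32608915 on the plus strand, which span the first start, read 5′ to 3′ gtaggtgtACGTGcggaaggaagTGACGTa, with capitals on ACGTG, the core of a hypoxia response element, and on TGACGT, the core of a cAMP response element. These lie 228 and 213 bases before the second start and do not overlap. Searched on both strands, ACGTG occurred in 19.6% of 32851 promoter windows of 300 bases, TGACGT in 7.51% and both in 3.41%. Of the 8 members with a window, *Tfrc* and *Ncoa4* held ACGTG and *Tfrc* alone held TGACGT, whereas *Slc11a2* and *Slc40a1* had no window in the table. Only these 2 motifs were searched, *Tfrc* had 2 windows, and the stretch shown was cut to hold both motifs. The matches therefore do not set *Tfrc* apart from the other members. A match of letters is a description and not a shown binding site.

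The other uptake genes did not pass the test. *Steap3*, the endosomal ferrireductase of the transferrin cycle (Entrez 68428, chromosome 1 from 120226414 to 120271081), read 10.29, 9.28, 9.21 and 10.02 in scrmb and 10.11, 10.56, 9.37 and 9.55 in MYTHO, in the order of animals A to D. The groups overlapped, with the highest array in MYTHO B and the lowest in scrmb C. The log2 difference was 0.20 with a standard error of 0.31 and a 95% interval of -0.48 to 0.88, and the limma adjusted p was 0.851. Without MYTHO B it was -0.02, so its sign rested on that array.

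*Slc11a2* codes for DMT1, which moves ferrous iron out of the endosome (Entrez 18174, chromosome 15 from 100387898 to 100424209). Its log2 signals were 6.96, 7.95, 7.78 and 7.89 in scrmb and 8.33, 8.27, 7.60 and 8.01 in MYTHO. The lowest value belonged to scrmb A and the highest to MYTHO A, and the other 6 arrays lay between 7.60 and 8.27. The difference was 0.41 with a standard error of 0.25, an interval of -0.15 to 0.96 and a limma adjusted p of 0.554, and it was 0.18 without scrmb A. *Hfe*, whose product associates with the transferrin receptor (Entrez 15216, chromosome 13 from 23702034 to 23710854), read 8.83, 8.52, 9.09 and 8.76 in scrmb against 9.24, 9.36, 8.67 and 8.62 in MYTHO. It was higher in MYTHO in animals A and B and lower in C and D, with a difference of 0.17, an interval of -0.31 to 0.65 and a limma adjusted p of 0.805. Leaving out 1 array moved the difference from 0.04 without MYTHO B to 0.29 without MYTHO D.

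Among the storage genes, *Fth1*, the ferritin heavy chain with ferroxidase activity (Entrez 14319, chromosome 19 from 9980600 to 9985111), was close to the top of the scale. Log2 signals were 19.69, 19.69, 19.70 and 19.70 in scrmb and 19.71, 19.70, 19.76 and 19.69 in MYTHO. The deposited signals stop at a ceiling of 19.93, and the scrmb mean lay 0.235 below it, so a rise larger than that could not have been read. The difference was 0.02 with an interval of -0.31 to 0.35, wider than the arrays' own spread because limma borrows variance from all probe sets, and the limma adjusted p was 0.978.

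*Ftl1* codes for the ferritin light chain (Entrez 14325, chromosome 7 from 45457944 to 45459886). Its scrmb arrays read 10.97, 11.18, 10.57 and 11.48 and its MYTHO arrays 11.69, 11.19, 11.36 and 11.35. MYTHO was higher in animals A and C by 0.72 and 0.79, was 0.01 higher in B and was lower in D. The difference was 0.35 with a standard error of 0.22, an interval of -0.13 to 0.82 and a limma adjusted p of 0.557. It was 0.19 without scrmb C and 0.49 without scrmb D. A second probe set, which also names *Mir692-3* and *Ftl2-ps* and so cannot separate them, gave 0.21 with a standard error of 0.23 and a limma adjusted p of 0.765. *Ncoa4*, the receptor that delivers ferritin to autophagosomes so that its iron can be released (Entrez 27057, chromosome 14 from 32159879 to 32179855), varied little. It read 13.21, 13.04, 12.94 and 13.24 in scrmb and 13.05, 13.03, 12.99 and 13.07 in MYTHO, a difference of -0.07 with an interval of -0.42 to 0.28 and a limma adjusted p of 0.896, and the difference was -0.03 to -0.13 when 1 array was left out.

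The only iron exporter among the members had the highest difference after *Tfrc* and the widest interval. *Slc40a1* codes for ferroportin (Entrez 53945, chromosome 1 from 45908070 to 45926532). Its log2 signals were 9.96, 9.57, 9.67 and 10.37 in scrmb and 9.30, 10.76, 10.88 and 11.03 in MYTHO. In animals B, C and D the MYTHO leg was higher by 1.19, 1.21 and 0.66, whereas in animal A it was lower by 0.66 and was the lowest of all 8 arrays. The difference was 0.60 with a standard error of 0.35, an interval of -0.16 to 1.36 and a limma adjusted p of 0.518. Without MYTHO A it was 1.00 with a limma adjusted p of 0.128, and it passed the threshold under none of the alternatives run. MYTHO A was also the array with the highest mean over 6 adipocyte markers, 10.7 against 5.46 to 9.20 on the other 7 arrays, and the part of fat in the *Slc40a1* value was not tested.

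Both iron sensors were measured with groups that overlapped. *Ireb2* codes for iron regulatory protein 2 (Entrez 64602, chromosome 9 from 54862658 to 54912534). It read 10.42, 10.32, 10.51 and 10.25 in scrmb and 10.43, 10.28, 9.89 and 10.54 in MYTHO, with MYTHO C alone below 10. The difference was -0.09 with an interval of -0.50 to 0.32 and a limma adjusted p of 0.891, and it turned to 0.04 without MYTHO C. *Aco1* codes for iron regulatory protein 1, which is a cytosolic aconitase when it holds an iron-sulphur cluster (Entrez 11428, chromosome 4 from 40143265 to 40199009). Its values were 8.81, 8.27, 8.99 and 8.50 in scrmb and 8.89, 9.26, 8.38 and 8.91 in MYTHO, a difference of 0.22 with an interval of -0.28 to 0.72 and a limma adjusted p of 0.758. Animal C ran against the other 3, with MYTHO lower by 0.61, and the difference was 0.38 without MYTHO C and 0.08 without MYTHO B.

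Over the 9 members other than *Tfrc*, differences ran from -0.09 to 0.60 and limma adjusted p from 0.518 to 0.978. All 9 intervals reached 0. For 8 of them the upper bound lay under 1, a doubling on this scale, and *Slc40a1* was the exception. *Fth1* is among the 8, but its scrmb mean lay 0.235 below the ceiling, so a doubling could not have been read. Over all probe sets the 10th to 90th percentile of differences was -0.44 to 0.37, and the median standard error was 0.22. A miss of the threshold with 4 arrays per group does not show that these transcripts were unchanged.

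**Figure D2:**
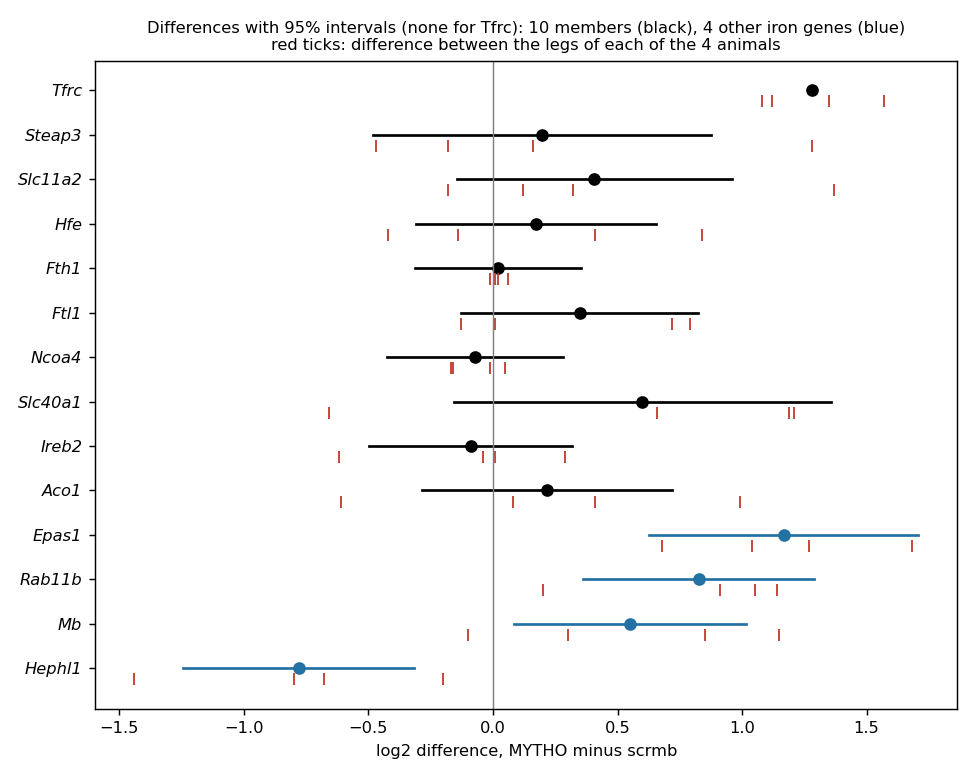
Log2 difference (x axis, MYTHO minus scrmb) with its 95% interval from limma for the 10 members (black) and 4 other iron genes picked by their differences (blue), with red ticks for the difference between the legs of each of the 4 animals. *Tfrc*, drawn without an interval because it was chosen for this contrast, has 4 ticks between 1.08 and 1.57, while the intervals of the other 9 members reach 0.

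The rest of the pathway was taken from 8 lists of 114 genes, and all 114 were found on the array. None was called at a limma adjusted p under 0.05, and the lowest adjusted p was 0.105. At an unadjusted p under 0.05, limma counted 7 higher and 1 lower, 7.02% of the 114 against 12.4% of all probe sets in either direction. This count of 8 was not stable, with 4 without scrmb C, 5 without MYTHO B and 15 without scrmb D. In all, 71 of 114 had a difference above 0, against 49% of all probe sets, with a median of 0.07. When 1 array was left out, 63 to 74 were above 0, with medians of 0.03 to 0.10. With animal as a block 10 were higher and 1 lower at an unadjusted p under 0.05, against 4.94% of all probe sets higher, 7.66% lower and 12.6% in both directions in that fit, and with eBayes trend and robust 2 were called, *Epas1* at a limma adjusted p of 0.0251 and *Rab11b* at 0.0455, where 160 of all probe sets were called.

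*Epas1* codes for HIF-2α, a hypoxia-inducible factor subunit whose transcript carries an iron-responsive element. Its log2 signals were 11.69, 11.36, 10.63 and 10.91 in scrmb and 12.37, 12.63, 12.31 and 11.95 in MYTHO. The groups did not overlap, and MYTHO was higher in all 4 animals. The difference was 1.17 with a standard error of 0.25, an interval of 0.63 to 1.71 and a limma adjusted p of 0.105. *Epas1* is abundant in endothelial cells, and the endothelial markers lay higher in MYTHO too. A difference above 0 was found in 8 of 8, against 49% of all probe sets, with a median of 0.39. By limma, 2 of 8, *Pecam1* and *Tek*, passed an unadjusted p under 0.05, against 4.81% of all probe sets in that direction. The list mean ran from 8.94 to 9.29 in scrmb and from 9.48 to 9.63 in MYTHO, without overlap. The part of the endothelial signal in *Epas1* and in *Tfrc* was not tested. *Hif1a*, which codes for the related subunit HIF-1α, had a difference of 0.01 with a standard error of 0.18.

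In the list of genes that carry the receptor through endosomes, 9 of 16 were above 0 with a median of 0.07, which was 0.01 to 0.13 when 1 array was left out. *Rab11b*, a small GTPase of recycling endosomes, read 13.34, 13.09, 12.80 and 13.46 in scrmb and 14.25, 14.23, 13.85 and 13.66 in MYTHO. It was higher in all 4 animals without overlap, with a difference of 0.82, a standard error of 0.21 and a limma adjusted p of 0.155. *Rab11a*, the paralogue of *Rab11b*, had -0.06, the clathrin heavy chain gene *Cltc* 0.09 (0.04 without scrmb D and 0.15 without scrmb C), and *Snx3*, a sorting nexin that returns the receptor to the surface, 0.39 with a standard error of 0.18. These 3 genes, and those below that are given with a role only, were picked for their role after their values were seen. The differences of *Hif1a*, *Rab11a*, *Fbxl5*, *Rc3h1*, *Hamp* and *Hjv* changed sign in at least 1 of the fits that left out 1 array.

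The list of regulators of iron regulatory proteins or *Tfrc* messenger RNA also holds transcription factor genes, among them *Epas1* and *Myc*. In this list 10 of 17 were above 0 with a median of 0.04. That direction rested on single arrays: without MYTHO B 7 of 17 were above 0 with a median of -0.05, and without MYTHO A 8 of 17 with a median just below 0. *Fbxl5*, the iron-sensing ubiquitin ligase subunit that targets iron regulatory proteins, had a difference of -0.06 with a standard error of 0.18. *Rc3h1*, coding for Roquin-1, which lowers *Tfrc* messenger RNA, had 0.07 with a standard error of 0.21. *Zc3h12a*, coding for the ribonuclease regnase-1, which also acts on *Tfrc* messenger RNA, had 0.42 with a standard error of 0.18 and a limma adjusted p of 0.364. *Myc*, a transcription factor known to act on *Tfrc*, had 0.29 with a standard error of 0.31, carried by MYTHO B at 9.13 against 7.63 to 7.74 on the other MYTHO arrays, and -0.07 without that array. Among the 5 genes outside the members that are described to carry an iron-responsive element, 4 were above 0, with a median of 0.27.

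Iron leaves cells through ferroportin with the help of ferroxidases, and hepcidin from the liver blocks that path. In the list of export and hepcidin genes 5 of 12 were above 0, with a median of -0.10. The median was -0.16 to 0.00458 when 1 array was left out, above 0 without MYTHO A and close to 0 without MYTHO D. *Hephl1*, a copper-dependent ferroxidase, was the 1 gene lower at an unadjusted p under 0.05: it read 6.45, 6.43, 6.13 and 6.21 in scrmb and 5.01, 5.63, 5.93 and 5.53 in MYTHO, without overlap. Its difference was -0.78 with a standard error of 0.21 and a limma adjusted p of 0.172. None of the *Hephl1* values was above 6.47, the highest array median. *Hamp*, coding for hepcidin, had -0.11, and *Hjv*, the haemojuvelin gene that skeletal muscle expresses strongly, had 0.02. In the list of other uptake genes and reductases 4 of 13 were above 0, with a median of -0.08 (-0.14 to -0.03 when 1 array was left out). None of the 13 passed an unadjusted p under 0.05 by limma, against 12.4% of all probe sets in either direction. *Trf*, coding for transferrin itself, had -0.08 with a standard error of 0.71, but MYTHO A, the array with the highest adipocyte marker mean, read 11.83 against 8.11 to 9.18 on the other MYTHO arrays. Without it the *Trf* difference was -0.90, and without MYTHO B it was 0.34, and the part of fat in it was not tested. *Tfr2*, the second transferrin receptor gene, had -0.12 with a standard error of 0.19, and -0.03 without scrmb C or -0.24 without MYTHO C. The *Tfr2* signals, 4.28 to 4.91, lay below every array median. Storage partners and iron chaperones were 4 of 6 above 0 with a median of 0.13 (0.09 to 0.23 when 1 array was left out). None of the 6 passed an unadjusted p under 0.05 by limma, against the same 12.4%.

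On the side of iron use, 22 of 25 genes of mitochondrial iron and iron-sulphur cluster assembly had a difference above 0, against 49% of all probe sets, with a median of 0.15. The count was 18 to 22 when 1 array at a time was left out, and 19 without both arrays of animal D. The differences were small: 2 of the 25, *Bola3* at 0.46 and *Iba57* at 0.43, both cluster assembly factors, were higher at an unadjusted p under 0.05, against 4.81% of all probe sets, and *Cisd1*, coding for an outer membrane iron-sulphur protein, had -0.39 with a standard error of 0.21, and -0.23 without MYTHO C. *Slc25a37*, coding for mitoferrin-1, had 0.29 with a standard error of 0.30, and 0.09 without scrmb C or 0.50 without scrmb D. Haem genes were 15 of 23 above 0 with a median of 0.07, or 0.04 to 0.10 when 1 array was left out. Of these *Mb*, coding for myoglobin, read 19.43, 18.79, 18.58 and 19.03 in scrmb and 19.33, 19.64, 19.73 and 19.33 in MYTHO. The difference was 0.55 with a standard error of 0.21 and a limma adjusted p of 0.326, higher in 3 of 4 animals and also near the ceiling. *Hmox1*, the inducible haem oxygenase gene, had 0.39 with a standard error of 0.28, and 0.22 without scrmb C.

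**Figure D3:**
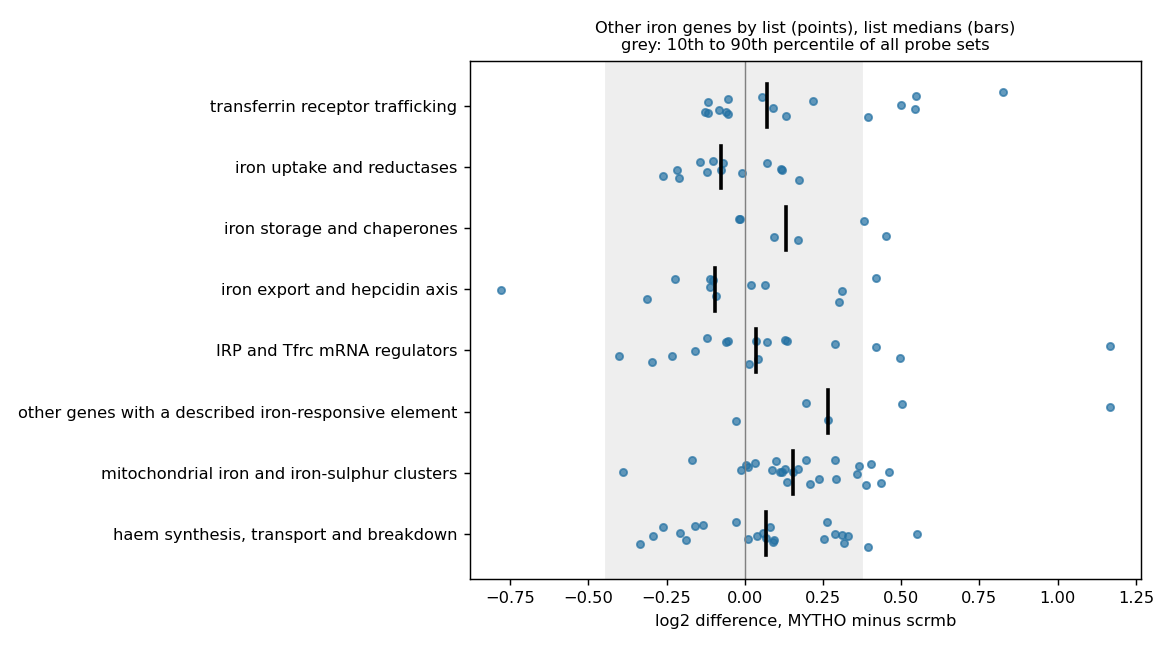
Log2 difference (x axis, MYTHO minus scrmb) of each gene in the 8 iron lists (points), with the list median (black bar) and the 10th to 90th percentile of all probe sets, -0.44 to 0.37 (grey). Most points lie inside the grey band, *Epas1* at 1.17 (in both lists that hold it) and *Rab11b* at 0.82 lie to its right, and *Hephl1* at -0.78 lies to its left.

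Slow fibres are rich in myoglobin and mitochondria. Their marker mean was higher in MYTHO in animals A, B and C, but was 10.6 in both legs of animal D, so the groups overlapped. By limma, 7 of 8 slow fibre markers were higher at an unadjusted p under 0.05, against 4.81% of all probe sets, and none at an adjusted p under 0.05. Their mean log2 signal was 12.3, 10.8, 10.8 and 10.6 in scrmb animals A to D and 13.5, 13.1, 13.4 and 10.6 in MYTHO. MYTHO D was at the level of the scrmb arrays for slow fibre markers with a *Tfrc* signal of 13.86, within the MYTHO range, and scrmb A had both the highest slow fibre mean and the highest *Tfrc* signal, 12.94, of the scrmb arrays. The part of slow fibres in the *Tfrc* signal was not tested. *Tfrc* is also abundant in erythroid precursors, dividing cells and macrophages. Erythroid markers had means of 7.92 to 8.55 in scrmb and 8.11 to 8.97 in MYTHO, proliferation markers 5.87 to 6.09 and 5.90 to 6.07, and macrophage markers 6.57 to 6.95 and 6.56 to 6.88, so all 3 lists overlapped between the groups. Proliferation means lay below the array medians of 6.39 to 6.47, and macrophage means little above them. At such low signals a change in these cells could be missed. At an unadjusted p under 0.05, none of the 11 erythroid probe sets, none of the 10 proliferation markers and 1 of the 14 macrophage markers, *Ptprc*, which was lower, passed by limma. Of all probe sets, 7.58% were lower at that threshold and 12.4% passed in either direction. Satellite cell and regeneration markers had means of 5.72 to 6.03 and 5.94 to 6.69, with a median difference of 0.34. Of these, 8 of 9 were above 0, against 49% of all probe sets, and 1 was higher without overlap, against 2.59%. By limma, 2 of 9 were higher at an unadjusted p under 0.05, against 4.81% of all probe sets. The part of these cells in the *Tfrc* signal was not tested beyond these values.

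**Figure D4:**
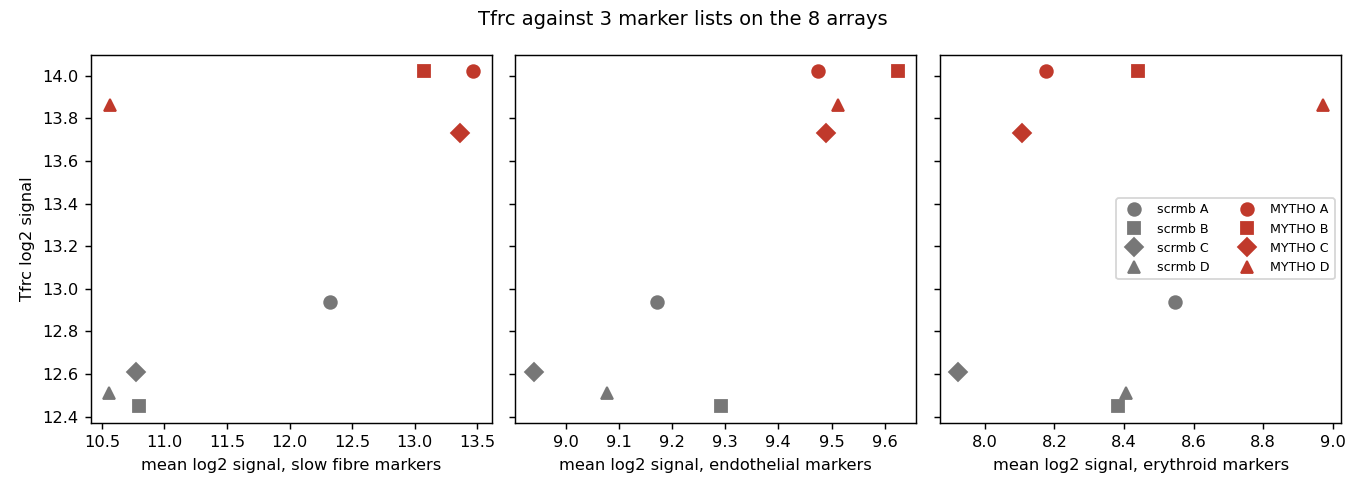
*Tfrc* log2 signal (y axis) against the mean log2 signal of slow fibre, endothelial and erythroid markers (x axes) on the 8 arrays, scrmb in grey and MYTHO in red, with one shape per animal. MYTHO D has a slow fibre mean of 10.6 with *Tfrc* at 13.86, scrmb A has the highest scrmb values of both, the endothelial means of the groups do not overlap, and the erythroid means do.

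Within the groups the members did not all follow *Tfrc*. Over the 8 arrays, which fall into the 2 groups, Pearson's r to *Tfrc* ran from -0.29 for *Ncoa4* to 0.49 for *Aco1*. After the group means were taken off, it was 0.74 for *Steap3*, 0.69 for *Aco1*, 0.58 for *Hfe*, 0.46 for *Ireb2* and 0.34 for *Ncoa4*, and it was -0.42 for *Fth1*, -0.36 for *Slc11a2*, -0.25 for *Slc40a1* and -0.21 for *Ftl1*. These values rest on 8 arrays and are descriptive.

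Of 9584 probe sets of a single named gene with a mean signal at or above the median, those closest to *Tfrc* over the 8 arrays were *Zfp644* (r = 0.956), *Slc10a3* (r = 0.954), *Ubl5* (r = 0.951), *Vti1b* (r = 0.950) and *Mmachc* (r = 0.946). *Zfp644* codes for a zinc finger protein, *Ubl5* for a ubiquitin-like protein, *Vti1b* for a SNARE of endosomal fusion and *Mmachc* for a cobalamin-processing protein. *Zfp644* read 12.38, 12.06, 12.22 and 12.07 in scrmb and 12.70, 12.98, 12.56 and 12.69 in MYTHO, highest in scrmb A and in MYTHO B of each group, as *Tfrc* was, except that MYTHO A equalled MYTHO B for *Tfrc*. With the group means taken off, r was 0.84 for *Zfp644* and 0.52 to 0.61 for the other 4. Log2 differences were 0.55, 1.08, 0.84, 0.67 and 0.60 in the same order. All points share the same 8 arrays and the group contrast, and no member of the iron list was among the 5.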

How the data were processed

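RNA of 4 scrmb and 4 MYTHO GAS muscles was measured on Clariom S Mouse arrays. Per the file headers, the authors deposited log2 signals from Transcriptome Analysis Console 4.0.1 (SST-RMA, gene level, annotation release 36, mm10), and the labels' processing notes also name Affymetrix Expression Console and RMA. The authors' own averages, fold changes and p-values were not used. Signals stop at 19.93, where 18 probe sets sat on all arrays.

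Groups were compared on all 22206 probe sets with limma 3.58.1 (lmFit, eBayes) in R 4.3.3, two-sided, with Benjamini-Hochberg adjustment over all probe sets. Animal was left out as a block because the study's array methods name no pairing term, and the blocked fit is an alternative. Differences are MYTHO minus scrmb. Precision is limited by 4 arrays per group. In the main fit, p-values set each difference against the spread between muscles of a group, with variance borrowed over all probe sets. That fit takes no account of the pairing of legs. Coordinates and promoters came from RefSeq for GRCm38.p6. All 211 listed symbols were matched, 6 through a synonym.

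The members and lists were chosen with earlier results of these data known. Besides all members and the target, the rule named, of the other iron genes, any called and up to 4 highest and 4 lowest at an unadjusted p under 0.05, and the 5 genes most like *Tfrc*; 1 gene so named is not reported here. In all, 10 marker lists were read beside the results: skeletal muscle, slow and fast fibre, erythroid, macrophage, proliferation, endothelial, satellite cell, adipocyte and Schwann cell. Alternatives were quantile normalization, median centring, the upper 75% of probe sets, eBayes trend and robust, array weights, no ceiling probe sets, the mean of a symbol's probe sets, animal as a block, and leaving out each array. Leaving out both arrays of animal A or D was added after seeing the data.

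The study injected both viruses into the same animals, so columns with one animal number are paired. Deviations from the group means correlated between the legs at 0.00266, -0.00145, 0.135 and 0.0871 in animals A to D. The labels' replicate numbers could not be tied to columns.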

Additional observations from a re-analysis of the deposited data

Results flagged for a closer look

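In 14 genes, the 10 members and 4 other iron genes, each group of 4 arrays was searched for an array far from the others with Dixon's 95% critical value for 4 values, and 1 of 28 groups held one, where chance gives about 1 in 20. *Slc40a1* in MYTHO A read 9.30, against 10.76 to 11.03 on the other MYTHO arrays, a gap of 0.844 of the group's range.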

How the results depend on the processing

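The log2 difference of *Tfrc* kept its direction under every alternative run, from 1.22 to 1.38 when 1 array was left out. Of the members, 1, *Tfrc*, was called at a limma adjusted p under 0.05, the call that put it in the list. With animal as the replicate block 0 members were called, and 2 probe sets of the array in place of 6. The count was 0 to 1 when 1 array was left out, with 1 only without scrmb D, where 154 probe sets were called in all against 1 in each of the other 7 such fits. It was 0 without both arrays of animal A or of animal D, fits with fewer arrays. Over the array, median centring called 44, eBayes trend and robust 160, and leaving out the ceiling probe sets 60. At an unadjusted p under 0.05 the members counted were 1, ranging from 1 to 2 when 1 array was left out, and 2 without both arrays of animal A, where *Slc40a1* joined *Tfrc* at a difference of 1.02. Of the other iron genes, 0 were called at a limma adjusted p under 0.05, with 8 at an unadjusted p under 0.05, and 2 were called with eBayes trend and robust, *Epas1* and *Rab11b*. Leaving out 1 array gave 0 to 0 called and 4 to 15 at an unadjusted p under 0.05, with 4 without scrmb C, 5 without MYTHO B and 15 without scrmb D. The sign turned for *Steap3* without MYTHO B (differences of -0.0233 to 0.394 when 1 array was left out), for *Ireb2* without MYTHO C (-0.175 to 0.0417) and for *Fth1* under quantile normalization (-0.00813), none of them called. The cause of these changes was not tested. Scaling alternatives moved the median of all probe sets by at most 0.04. Signals near the ceiling limit *Fth1* and *Mb*.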
